A study of Rattus norvegicus with 9 samples.

Results

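Transcripts of 5 antioxidant enzymes, Sod1, Sod2, Cat, Hmox1 and Nqo1, were followed in the cerebral cortex of male BN rats (Substrain BN/SsNOlaHSD) aged 6, 12 or 28 months. The 5 were chosen as known enzymes of the antioxidant defence and not by a rule on their measured values, although earlier results of these data were known. They are 5 of the 29516 Ensembl gene identifiers in the count files. All rats were fed ad libitum. The study asked which genes change in expression between these ages, and compared the ages pairwise. Each age was represented by 3 labelled libraries of ribosomal RNA-depleted RNA, each pooled from 2 rats and sequenced on the SOLiD V4 platform, so a library is an average of 2 animals and no value belongs to a single rat.

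Superoxide leaking from the respiratory chain is converted to hydrogen peroxide by superoxide dismutases. Sod1 encodes the copper and zinc enzyme of the cytosol and Sod2 the manganese enzyme of the mitochondrial matrix. Cat encodes catalase, which breaks hydrogen peroxide down to water and oxygen, mostly in peroxisomes. Hmox1 encodes heme oxygenase 1, the stress-inducible enzyme that opens heme to biliverdin, iron and carbon monoxide. Nqo1 encodes a quinone reductase that passes both electrons at once and so avoids the semiquinone radical. Hmox1 and Nqo1 are classical targets of the transcription factor Nrf2, which binds antioxidant response elements. In the brain, neurons depend heavily on mitochondrial respiration, and both inducible enzymes are known from glia.

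The gene reads of a library numbered from 6513376 to 9196951, and 1 identifier, ENSRNOG00000043866, held 44.0 to 52.4% of them. The count files labelled 6 months p2 and 12 months p9 hold the same value for all 29516 identifiers. This shared file was left out of the tests, which leaves p1 and p3 at 6 months, p7 and p8 at 12 months and p4, p5 and p6 at 28 months, and its values are given apart. The neuronal marker Gria2 was present in every library, between 761 and 961 normalized counts (CPM, gene reads scaled to a common library size after TMM). Of 23 cell type markers, 17 could be paired with an identifier. The single astrocyte marker, Gfap, was at 72.4 to 89.1 CPM at 6 months, 145 to 155 at 12 months and 52.3 to 77.0 at 28 months, and the sum of the 3 myeloid markers Aif1, Cd74 and Fcgr3a was at 10.8 to 12.7, 41.6 to 46.03 and 10.5 to 16.2 CPM. Marker levels at 6, 12 and 28 months were 22.9 to 31.4, 33.4 to 50.5 and 17.2 to 29.0 CPM for the hemoglobin gene LOC689064, and 128 to 160, 207 to 209 and 84.8 to 127 for Tf, an identifier that the study's table describes as another gene. The plasma protein genes Alb, Apob and Gc summed to 0.545 to 0.573, 5.70 to 14.7 and 0.910 to 3.33 CPM, with Gc at 0 in both 6-month libraries, and Lrp2 and Cdh1 of choroid plexus and meninges to 0.980 to 2.40, 4.85 to 6.05 and 2.72 to 3.32. The shared file held 151 CPM of Gfap, 30.3 of the myeloid sum and 20.5 of the pineal gland marker Tph1, which did not exceed 1.10 in any other library.

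Promoter sequences are shown for Sod1 and Nqo1, the members whose differences between ages had an unadjusted p under 0.05. They are the 250 bases before the transcription start in RefSeq's GRCr8 assembly, a later build than the RGSC 3.4 assembly to which the reads were mapped, and 4 of the 5 members had an entry, Hmox1 being the exception. The Sod1 window lies at chr11:42942573-42942822 on the plus strand and the Nqo1 window at chr19:52220268-52220517 on the minus strand, both written 5′ to 3′ along the gene. Capitals mark a TATA box (TATAAA) and a GC box (GGGCGG, which in both windows stands on the other strand).
Sod1: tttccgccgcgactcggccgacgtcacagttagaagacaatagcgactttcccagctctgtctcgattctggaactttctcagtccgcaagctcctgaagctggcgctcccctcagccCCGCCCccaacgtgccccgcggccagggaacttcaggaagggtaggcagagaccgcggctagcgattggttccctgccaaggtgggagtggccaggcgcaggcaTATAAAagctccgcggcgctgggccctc
Nqo1: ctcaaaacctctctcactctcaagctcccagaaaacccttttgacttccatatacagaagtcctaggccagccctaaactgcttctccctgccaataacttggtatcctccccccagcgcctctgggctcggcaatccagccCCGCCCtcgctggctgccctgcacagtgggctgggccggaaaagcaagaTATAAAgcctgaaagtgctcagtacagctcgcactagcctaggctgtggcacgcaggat
TATAAA began 28 bases before the start in Sod1 and 59 bases before it in Nqo1, and the windows of Sod2 and Cat did not hold it. On either strand, TATAAA was found in 12.9% of all 33469 promoter windows of this length and the GC box in 30.5%. The core of the antioxidant response element (TGACNNNGC, searched on both strands) was found in the Sod2 window only, from 35 to 27 bases before the start on the other strand, and in 10.1% of all windows. A consensus NF-kappaB motif, searched on both strands, was in 0 of the 4 windows and in 0.0956% of all. The GC content was 63.2% in Sod1, 71.6% in Sod2, 58.8% in Cat and 56.4% in Nqo1, against a median of 51.2% over all windows. Bases outside these 250-base windows were not searched, so a motif missing from a window may lie elsewhere. These matches are a description of the letters, since the data hold no measurement of binding.

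No member was differentially expressed (DE) between any ages, whereas the same tests called 1.2% of the identifiers tested for 6 against 12 months, 0.206% for 6 against 28 months and 0.12% for 12 against 28 months. The count was 0 of 5 in each comparison by edgeR's quasi-likelihood test at a false discovery rate (FDR, Benjamini-Hochberg over all identifiers tested) of 0.05. A share of 0 of 5 is near these background rates. With the shared file kept in both ages as labelled, the members called were again 0 of 5 each time, and the background was 0, 0.111 and 0.0563%. At an unadjusted p under 0.05, 0, 1 and 1 members passed, against 13.6, 6.45 and 7.68% of all identifiers. The 2 differences were Nqo1 between 6 and 28 months and Sod1 between 12 and 28 months. The edgeR exact test also called 0 of 5 in each comparison, and DESeq2 0 of 4, since it gave Hmox1 no adjusted p between any pair of ages. DESeq2 gave 0, 0 and 1 members at an unadjusted p under 0.05, and the exact test 0 in each.

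**Figure D1:**
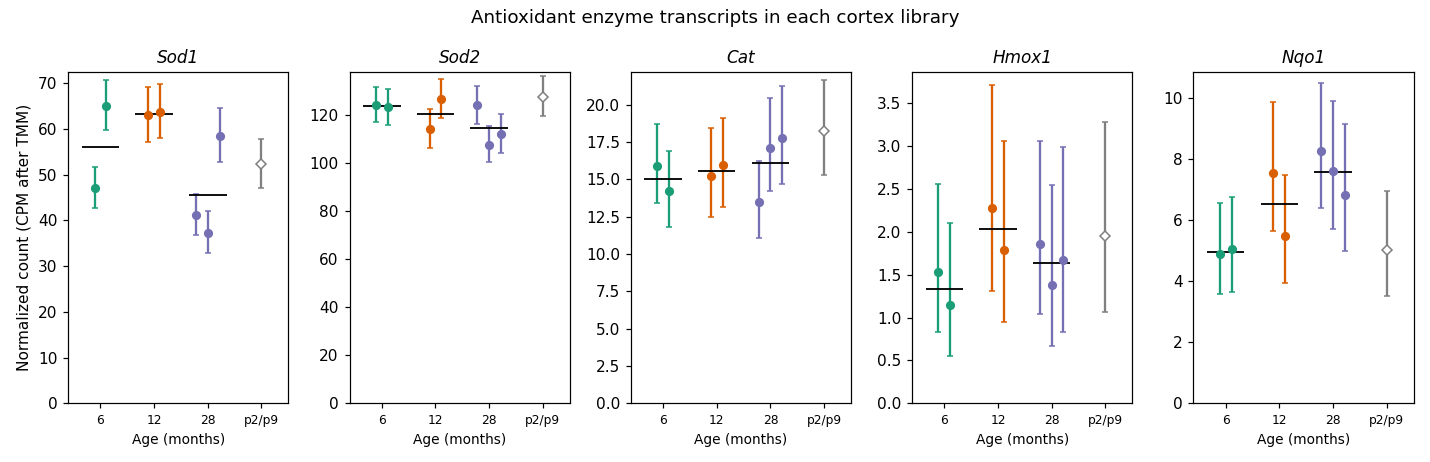
Normalized count (CPM after TMM, linear axis from 0) of the 5 enzymes in each of the 8 distinct count files, by age in months. Points are libraries, vertical bars their exact 95% Poisson intervals, horizontal lines the mean of an age, and the open diamond is the file deposited as both p2 and p9; Nqo1 is at 4.90 to 5.04 at 6 months and 6.83 to 8.27 at 28 months, and Sod1 is at 63.0 to 63.8 at 12 months and 37.3 to 58.4 at 28 months.

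Sod1 (ENSRNOG00000002115) was the member with the widest spread relative to its counting error. It had 47.0 and 65.05 CPM in p1 and p3 at 6 months, 63.0 and 63.8 in p7 and p8 at 12 months, and 41.2, 37.3 and 58.4 in p4, p5 and p6 at 28 months, from 270 to 568 reads per library. The 12-month libraries lay above all 3 libraries of 28 months, and the 6-month libraries overlapped both other ages. The means were 56.0 ± 12.7 (SD, n = 2), 63.4 ± 0.532 (n = 2) and 45.7 ± 11.2 (n = 3). The shared file, at 52.3 CPM, was the fourth from the lowest of the 8 count files.

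Libraries of the same age differed in Sod1 by more than their counts allow. At 6 months the exact 95% Poisson interval was 42.7 to 51.7 CPM in p1 and 59.8 to 70.6 in p3, and at 28 months it was 33.0 to 42.0 in p5 and 52.7 to 64.5 in p6. These intervals cover counting error only, and neither pair overlaps. The SD of log2 CPM within ages was 0.29, over 4 residual degrees of freedom, against 0.071 from counting alone. Of the 1511 identifiers with a like count (within 1.5-fold), 87.8% had a smaller SD and their median was 0.17.

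Sod1 was lower at 28 than at 12 months by a log2FC of -0.47 (standard error 0.19, 95% interval -0.89 to -0.047), where a negative log2FC means lower expression at the older age. As a fold this is 0.724, with an interval of 0.541 to 0.968. The unadjusted p of edgeR's quasi-likelihood test was 0.0321 and the FDR 0.586. Among all identifiers tested in this comparison, 24.6% had libraries that did not overlap between the ages, 13.2% with lower and 11.4% with higher values at 28 months, and Sod1 was the only member among them. With the shared file kept at 12 months as its label p9 says, the log2FC was -0.38, with an edgeR unadjusted p of 0.0642 and an FDR of 0.998. Leaving out single libraries, the difference was -0.34 without p5, -0.40 without p4, -0.46 without p8 and -0.47 without p7, with edgeR unadjusted p of 0.0812, 0.0649, 0.111 and 0.0990. Without p6, the library with the highest Sod1 level at 28 months, it was -0.68, with an edgeR unadjusted p of 0.00486 and an FDR of 0.551. The Gfap level and the myeloid sum were likewise lower at 28 than at 12 months, and their part in the Sod1 values was not tested.

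The Sod1 differences from 6 months moved with single libraries. Between 6 and 12 months the log2FC was 0.17 (interval -0.23 to 0.57, edgeR FDR 0.717), and it was 0.42 without p3 and -0.036 without p1. Between 6 and 28 months it was -0.30 (interval -0.79 to 0.19, edgeR FDR 0.880), and it was -0.044 without p3, -0.51 without p1, -0.17 without p5, -0.22 without p4 and -0.51 without p6. Sod1 at 12 months stood above the mean of 6 and 28 months by a log2FC of 0.32 (standard error 0.19, interval -0.085 to 0.72, edgeR FDR 0.575) in 1 fit over the 3 ages. In that contrast 0 of 5 members were DE, against 0.663% of the identifiers tested (0% with the shared file in both ages), and 0 members and 10.8% of identifiers had an unadjusted p under 0.05.

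Sod2 (ENSRNOG00000019048) was the steadiest of the 5. It had 124 and 123 CPM in p1 and p3 at 6 months, 114 and 127 in p7 and p8 at 12 months, and 124, 108 and 112 in p4, p5 and p6 at 28 months, from 739 to 1139 reads. All 3 ages overlapped. The highest of the 8 count files, the shared file at 128 CPM, was 1.18-fold above the lowest. The SD of log2 CPM within ages was 0.091, and of 706 identifiers with a like count 11.8% had a smaller one.

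The Sod2 intervals were the narrowest of the 5 in each pairwise comparison. Against 6 months its log2FC was -0.045 at 12 months (interval -0.37 to 0.28, edgeR FDR 0.921) and -0.11 at 28 months (interval -0.46 to 0.24, FDR 0.942). From 12 to 28 months it was -0.062 (interval -0.40 to 0.28, edgeR FDR 0.950). As folds, the interval between 6 and 28 months runs from 0.728 to 1.18, so a change beyond these values lies outside it. The contrast of 12 months with the mean of the other ages gave a log2FC of 0.0079 (interval -0.28 to 0.30).

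**Figure D2:**
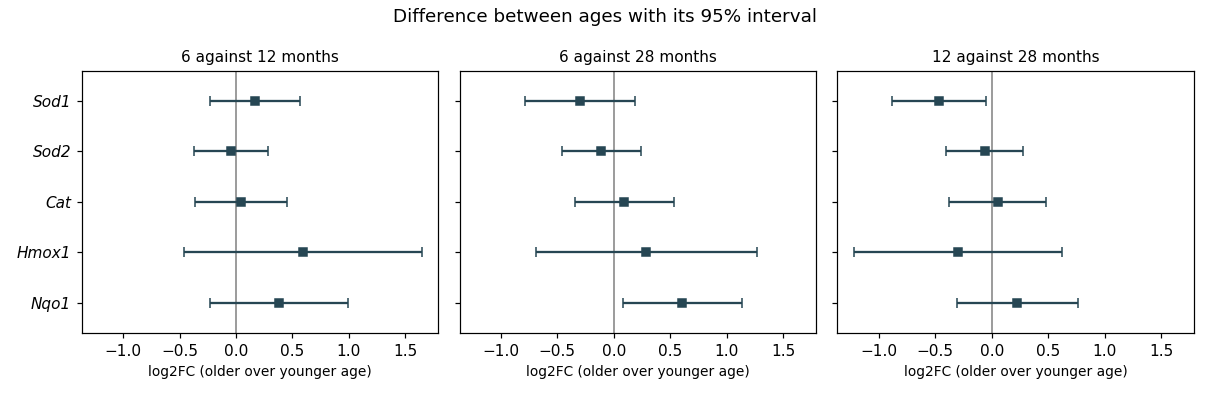
Difference between ages for each enzyme as log2FC, older over younger age, with its 95% interval from edgeR's quasi-likelihood fit without the shared file; the vertical line marks no difference. The intervals of Nqo1 between 6 and 28 months (0.078 to 1.13) and of Sod1 between 12 and 28 months (-0.89 to -0.047) leave out 0 before adjustment for the number of identifiers, and the other 13 include it.

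Cat (ENSRNOG00000008364) differed between ages by a log2FC of at most 0.094 in the pairwise fits. It had 15.9 and 14.2 CPM in p1 and p3 at 6 months, 15.3 and 15.9 in p7 and p8 at 12 months, and 13.5, 17.1 and 17.7 in p4, p5 and p6 at 28 months, from 107 to 146 reads. The values at 6 and 12 months fell inside the range of the 28-month libraries, which spread the most. The shared file was the highest of the 8, at 18.3 CPM. Against 6 months its log2FC was 0.043 at 12 months (interval -0.36 to 0.45, edgeR FDR 0.942) and 0.094 at 28 months (interval -0.34 to 0.53, FDR 0.961), and from 12 to 28 months it was 0.053 (interval -0.38 to 0.48, FDR 0.967). The contrast of 12 months with the mean of the other ages was -0.0057 (interval -0.38 to 0.37). The sign of Cat between 12 and 28 months turned to a log2FC of -0.031 with the shared file at 12 months, and both values are small beside the standard error of 0.20.

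The SD of log2 CPM of Cat within ages was 0.17, against 0.13 from counting alone. Of 2623 identifiers of like count, 28.6% had a smaller SD. Sod2, whose enzyme forms hydrogen peroxide, and Cat, whose enzyme removes it, both had a spread below the median of identifiers counted as often, which was 0.16 and 0.21.

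Hmox1 (ENSRNOG00000014117) was close to the limit of what these libraries can measure, at 10 to 16 reads per library. It had 1.52 and 1.15 CPM in p1 and p3 at 6 months, 2.28 and 1.79 in p7 and p8 at 12 months, and 1.85, 1.38 and 1.67 in p4, p5 and p6 at 28 months. Both 12-month libraries lay above both 6-month libraries, and the 28-month libraries overlapped the other ages. The shared file held 14 reads, or 1.95 CPM. The 95% Poisson interval of the lowest library, p3, was 0.549 to 2.11 CPM and that of the highest, p7, 1.30 to 3.70, so the extremes overlap.

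Against 6 months, Hmox1 had a log2FC of 0.59 at 12 months (standard error 0.47, interval -0.46 to 1.64, edgeR FDR 0.626) and 0.29 at 28 months (interval -0.69 to 1.27, FDR 0.948). From 12 to 28 months it was -0.30 (interval -1.22 to 0.62, edgeR FDR 0.910). Between 6 and 12 months the interval reaches from 0.725-fold to 3.12-fold. The fitted difference was not detected, and whether depth or the number of libraries limited this was not tested. Leaving out single libraries gave 0.40 (without p3 or p7) to 0.82 (without p1) from 6 to 12 months, 0.10 (without p3) to 0.51 (without p1) from 6 to 28 months and -0.47 (without p8) to -0.11 (without p7) from 12 to 28 months. With the shared file kept at 6 months, the log2FC from 6 to 28 months was 0.10, and with it in both ages that from 6 to 12 months was 0.39. The contrast of 12 months with the mean of the other ages was 0.44 (interval -0.38 to 1.27, edgeR FDR 0.726). The SD within ages was 0.24 on the log2 scale, less than the 0.40 that counting error alone gives, and 6.36% of 2153 identifiers of like count had a smaller one. The Gfap level, the myeloid sum and the plasma protein and hemoglobin transcripts were also higher at 12 than at 6 months in these libraries, and their part in the Hmox1 values was not tested. In bulk tissue, more cells of a type and more RNA per cell cannot be told apart.

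Nqo1 (ENSRNOG00000012772) had its lowest mean at 6 months and its highest at 28 months, a difference that did not pass the adjusted test. It had 4.90 and 5.04 CPM in p1 and p3 at 6 months, 7.55 and 5.50 in p7 and p8 at 12 months, and 8.27, 7.60 and 6.83 in p4, p5 and p6 at 28 months, from 40 to 67 reads. Both the 12-month and the 28-month libraries lay above both libraries of 6 months, and the ages of 12 and 28 months overlapped. The means were 4.97 ± 0.0978 (SD, n = 2), 6.53 ± 1.46 (n = 2) and 7.57 ± 0.723 (n = 3). The shared file held 36 reads, or 5.02 CPM, between the 6-month libraries and below all others.

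Between 6 and 28 months the log2FC of Nqo1 was 0.61 (standard error 0.24, interval 0.078 to 1.13), a 1.52-fold higher level with an interval of 1.06 to 2.20. The unadjusted p of edgeR's quasi-likelihood test was 0.0280 and the FDR 0.709. Values that do not overlap between these ages were found in 21.9% of all identifiers, 10.9% with higher and 11% with lower values at 28 months, and Nqo1 was the only member among them. With the shared file kept at 6 months, the log2FC was 0.60, with an edgeR unadjusted p of 0.0166 and an FDR of 0.9998. Leaving out each library in turn gave a log2FC of 0.54 to 0.68, and the edgeR unadjusted p was 0.104 without p1, 0.0851 without p3, 0.0723 without p4, 0.0405 without p5 and 0.0326 without p6. The counting interval of p1, 3.57 to 6.56 CPM, meets that of p4, 6.41 to 10.5, although these are the lowest and the highest library.

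At 12 months Nqo1 was spread between p7 and p8, and neither difference from that age passed a test. From 6 to 12 months Nqo1 had a log2FC of 0.38 (standard error 0.27, interval -0.23 to 0.99, edgeR FDR 0.579), and from 12 to 28 months 0.23 (interval -0.31 to 0.76, FDR 0.860). The first was 0.13 without p7 and 0.60 without p8, and the second 0.47 without p7 and 0.012 without p8. Between 6 and 12 months, 45.4% of all identifiers had libraries that did not overlap, 23.1% with higher and 22.4% with lower values at 12 months, and Hmox1 and Nqo1 were 2 of the 5 members among them. The contrast of 12 months with the mean of the other ages was 0.078 (interval -0.40 to 0.56). The SD within ages was 0.19, near the 0.20 of counting alone. Markers of other cell types also differed between 6 and 28 months. The plasma protein sum (0.545 to 0.573 against 0.910 to 3.33 CPM), the sum of Lrp2 and Cdh1 (0.980 to 2.40 against 2.72 to 3.32) and the myeloid marker Cd74 (5.04 to 5.12 against 6.98 to 12.9) were higher at 28 months without overlap, as Nqo1 was. Within these sums, Alb (0.327 to 0.344 against 0.910 to 1.85) and Cdh1 (0.687 to 0.762 against 2.12 to 3.18) did not overlap. Apob (0.218 to 0.229 against 0 to 1.11) and Gc (0 against 0 to 0.553) did overlap. Lrp2 also overlapped (0.218 to 1.72 against 0.138 to 1.06), with a negative log2FC of -0.90. The myeloid marker Aif1 was lower, at 5.15 to 5.66 against 2.49 to 3.46 CPM, and Gfap and the myeloid sum overlapped. The part of these markers in the Nqo1 values was not tested.

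**Figure D3:**
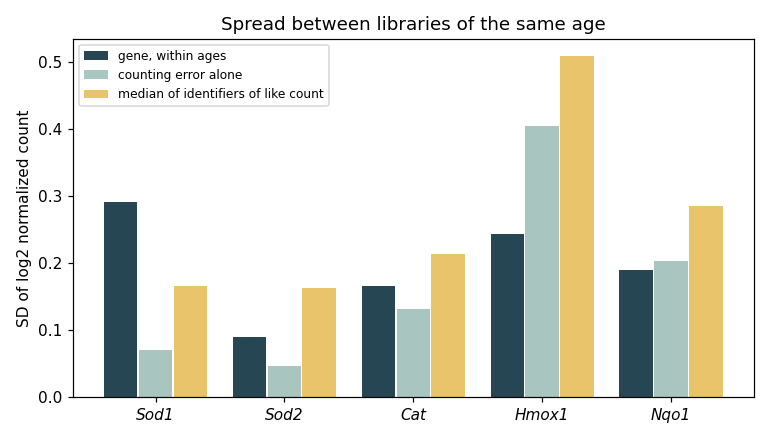
SD of log2 normalized count between libraries of the same age (linear axis from 0), for each enzyme beside the SD that counting error alone gives and the median SD of identifiers with a like count. Sod1 (0.29) is above both references, Hmox1 (0.24) and Nqo1 (0.19) are below both, and Sod2 (0.091) and Cat (0.17) lie between them.

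The median log2FC of the 5 members was 0.17 from 6 to 12 months, 0.094 from 6 to 28 months and -0.062 from 12 to 28 months, beside -0.010, -0.0073 and 0.0054 over all identifiers tested. The 95% interval lay within a log2FC of -1 to 1 for 4, 3 and 4 of the 5 members. The pairwise comparisons share libraries and are not independent of each other.

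Ratios of read counts within a library need no scaling between libraries, and show how the enzymes shifted against each other. They are ratios of reads, not of molecules, since no transcript length was used. Sod2 reads exceeded Sod1 reads in every count file, and the log2 ratio of Sod1 to Sod2 ran from -1.59 to -0.86 with mean values of -1.16 (6 months), -0.92 (12 months) and -1.35 (28 months). At 28 months p4 and p5 were at -1.59 and -1.53 and p6 at -0.94, so the last of these stood with the 12-month libraries (-0.86 and -0.99).

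Of the 10 ratios, that of Sod2 to Nqo1 varied least between the 6-month libraries. Its log2 was 4.66 and 4.61 in p1 and p3 at 6 months, 3.92 and 4.53 in p7 and p8 at 12 months, and 3.91, 3.82 and 4.04 in p4, p5 and p6 at 28 months. The 28-month libraries lay below both of 6 months, and p7 of 12 months stood among them. The shared file, at 4.67, stood beside the 6-month libraries. For Sod1 to Nqo1 the log2 ratio was 3.26 and 3.69 at 6 months, 3.06 and 3.54 at 12 months and 2.32, 2.30 and 3.10 at 28 months, with 3.38 in the shared file. Here p6 of 28 months lay above p7 of 12 months, so the ages of 12 and 28 months overlapped, and the 6-month libraries lay above all 3 of 28 months. No test was made on ratios, because 2 libraries against 3 cannot give a permutation p under 0.05.

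**Figure D4:**
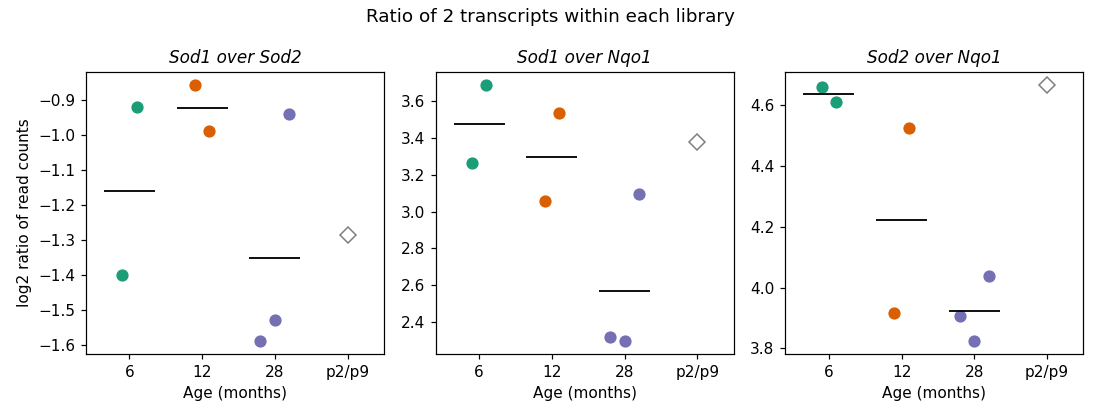
Log2 ratio of the read counts of 2 enzymes within each library, by age in months, for Sod1 over Sod2, Sod1 over Nqo1 and Sod2 over Nqo1; the vertical axes differ and do not start at 0. Points are libraries, lines the mean of an age and the diamond the shared file; Sod2 over Nqo1 is at 4.61 to 4.66 at 6 months and 3.82 to 4.04 at 28 months.

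No pair of members had a correlation between libraries that passed its test. Over the 8 distinct count files, 5 of the 10 pairs had a positive and 5 a negative Pearson correlation of log2(CPM + 0.5), from -0.64 to 0.34, and 0 of 10 had an exact permutation p under 0.05. The strongest was Sod2 with Nqo1, at r = -0.64 (two-sided exact permutation p = 0.109, adjusted 0.919) and rho = -0.60 (exact permutation p = 0.132, adjusted 0.980), and r was -0.56 without the 2 libraries farthest from the median of Sod2. The Nrf2 targets Hmox1 and Nqo1 had r = 0.34 (exact permutation p = 0.407, adjusted 0.919). It was -0.20 without the 2 libraries farthest from the median of Hmox1. Both superoxide dismutases, Sod1 and Sod2, had r = 0.26 (exact permutation p = 0.522, adjusted 0.919). It was -0.28 without the 2 libraries farthest from the median of Sod1.

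The named genes most like each member were taken from identifiers with a mean of at least 20 reads. These were the other members and the identifiers that the study's tables pair with a symbol. They numbered 128 for Hmox1 and 127 for each other member. The study chose many of these genes on the same samples. By Pearson's r over the 8 count files, Sod1 was nearest to Dync1i1, a dynein intermediate chain (r = 0.76), and to D3ZQL1_RAT (0.67). Sod2 was nearest to Qdpr, the dihydropteridine reductase (0.77), and to Tgoln1 (0.66), and Cat to RGD1359529 (0.78) and LOC100364502 (0.73). Hmox1 was nearest to Sdhd, a membrane subunit of succinate dehydrogenase (0.91), and to RT1-Ba, a class II histocompatibility gene (0.79), at 10 to 16 reads per library. Nqo1 was nearest to Sult1a1, a phenol sulfotransferase (0.78), and to Gria2, an AMPA receptor subunit (0.75). Among all identifiers with that mean count these were not the closest, since Sdhd ranked 19 of 10968 for Hmox1 and Sult1a1 65 of 10967 for Nqo1, and the likeness is a description over 8 points.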

How the data were processed

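RNA from male rat cerebral cortex, pooled from 2 rats per library, was depleted of ribosomal RNA and sequenced on the SOLiD V4 system, with 3 labelled libraries per age. The authors mapped the reads with Bowtie to Ensembl release 65 (RGSC 3.4, rn4), used SAMtools for sorting and HTSeq for counting per gene, and the deposited files hold these raw counts without normalization. Tool versions and the strand setting are not given in the sources used here, so genes that overlap, lie antisense or have a near copy may have uncertain counts.

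The 5 members and all lists were chosen with earlier results of these data known. The identifiers of the members were paired with names when the members were chosen, and the files hold identifiers only. Named besides the members were the 2 identifiers with a symbol most like each, and the cell type markers, of which 1 is not reported here. A list of 36 further antioxidant genes was not analysed here, since 0 of its symbols could be paired with an identifier.

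Libraries were grouped by their labelled age. Counts of identifiers with at least 5 reads in at least 1 library of a fit were scaled with TMM and tested with the quasi-likelihood test of edgeR 4.0.16 (R 4.3.3), 1 fit for each pair of ages, plus the contrast of 12 months with the mean of 6 and 28 months, all at a Benjamini-Hochberg FDR of 0.05. The file deposited as both p2 and p9 was left out of these fits. CPM were scaled over the 8 distinct files. The scripts were tested on simulated data. Alternatives were the shared file kept in both ages or in 1, the edgeR exact test with tagwise dispersion (prior n 7), DESeq2 1.42.0, RLE, upper quartile scaling, other filters, 1 fit over the ages, library sizes without the most abundant identifier, and each library left out. Correlations and permutations used Python 3.11.15 and scipy 1.17.1. Pools came from separate rats by the study's methods. The edgeR p-values rest on the spread between these pools, with the variance of each identifier drawn towards that of the others. They may therefore understate the spread of an identifier as variable as Sod1, above 87.8% of identifiers of like count.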

Additional observations from a re-analysis of the deposited data

How the results depend on the processing

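No paired analysis was possible because the labels give p1 to p9 without a number shared between ages. Of 315 alternative log2FC values for the 20 combinations of gene and comparison, 291 kept their direction and 24 reversed, 0 had an FDR under 0.05 (for Hmox1, DESeq2 gave none in the 3 pairwise comparisons), and the lowest FDR by any test was 0.251 (Sod1 between 6 and 12 months without p3). Under every alternative 0 of the members with an FDR were called. The cause of the reversals was not tested. Keeping the shared file at 6 months only gave Cat a log2FC of -0.056 between 6 and 12 months. Keeping it in both ages or at 12 months only gave Cat -0.031 between 12 and 28 months, and, in the contrast of 12 months with the other ages, Cat 0.035 and 0.083 and Nqo1 -0.030 and -0.028. In that contrast Cat was 0.015 with upper quartile scaling, 0.0018 without the most abundant identifier in the library sizes and 0.0019 with at least 10 reads in every library. Leaving out each library in turn gave, between 6 and 12 months, -0.036 to 0.42 for Sod1, -0.12 to 0.017 for Sod2 and -0.041 to 0.14 for Cat. It gave -0.13 to 0.012 for Sod2 and -0.020 to 0.17 for Cat between 12 and 28 months, and -0.065 to 0.078 for Sod2, -0.069 to 0.042 for Cat and -0.17 to 0.29 for Nqo1 in the contrast. Upper quartile scaling moved the mean of Sod2 at 6 months to 122 CPM. Without the shared file, r was -0.033 for Sod2 with Hmox1 and -0.052 for Cat with Hmox1.

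The number of all identifiers called moved far more than the members did. By edgeR's quasi-likelihood test it was 191 between 6 and 12 months, and 0 with the shared file in both ages (485 at an unadjusted p under 0.05), 19 and 109 with it at 6 or 12 months only, 452 by the exact test, 112 with no filter and 360 to 889 without single libraries. Between 6 and 28 months it was 33, and 18 with the shared file, 70 by DESeq2, 131 by the exact test, 199 with no filter and 0 (without p6, 549 unadjusted) to 137 without single libraries. Between 12 and 28 months it was 19, and 9 with the shared file, 82 by DESeq2, 117 by the exact test, 139 with no filter and 0 (without p6 or p8, 870 or 918 unadjusted) to 142 without single libraries. The contrast gave 108, and 0 (740 unadjusted), 21 and 44 with the shared file in both ages, at 6 and at 12 months only, 193 by DESeq2, 292 with no filter and 0 (without p8, 1300 unadjusted) to 148 without single libraries. Hmox1 had the fewest reads of the members, at 10 to 16 per library.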
